A study of Mus musculus with 4 samples.

Results

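The 43 genes described here, called enzyme genes below, encode enzymes or core subunits of enzymes that add marks to histones or DNA or remove them. The set holds histone deacetylases, sirtuins, lysine demethylases, lysine acetyltransferases, the catalytic and core subunits of Polycomb repressive complex 2 (PRC2), DNA methyltransferases and TET dioxygenases. The genes were taken from a list whose rule uses no measured value, although it was drawn up with earlier results of these data known. Each gene was read from 1 probe set, the one with the highest mean log2 intensity among the probe sets annotated to that gene alone. All 43 had such a probe set, out of 18194 genes on the array. The study asked how a long noncoding RNA acts on myeloid-derived suppressor cells (MDSCs), a mixed population of immature neutrophil-like and monocyte-like cells that restrain T cells. The RNA is lncMDSC in the sample labels and lnc-C/EBPβ in the paper. C57BL/6 mouse bone marrow cells received lentivirus at a multiplicity of infection of 50, and GM-CSF and IL-6, each at 40 ng/ml, were present in the 4 days of culture in all groups. kdLNC received the shRNA lentivirus against the RNA and kdNC the control shRNA lentivirus. oeLNC received the lentivirus that overexpresses the RNA and oeNC the control lentivirus for overexpression. There was 1 culture and 1 Affymetrix array per group, so no difference below has a replicate error or a p-value, and an effect of the lentivirus cannot be told apart from a difference between single cultures.

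Acetyl groups on histone tails loosen chromatin and recruit readers that favour transcription. Acetyltransferases write them, and the zinc-dependent deacetylases and the NAD-dependent sirtuins erase them. Methyl groups on histone lysines can mark active or silent genes according to the lysine. PRC2 writes the methyl mark that keeps developmental genes silent, and the KDM enzymes erase marks of several lysines. DNMT enzymes methylate cytosine in CpG pairs and TET enzymes oxidise the methyl group, and in myeloid cells loss of Tet2 or Dnmt3a function is known to alter the growth and maturation of progenitors.

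The 4 arrays had median intensities of 4.17 to 4.24 on the log2 scale, and log2 levels correlated at r = 0.99 within the knockdown pair and at r = 0.98 between the control arrays over all probe sets. No probe set carries the name of the noncoding RNA, so its own level was not analysed here. Mature neutrophil markers had a probe set above the filter, a mean over the 4 arrays above that of the median probe set, for 12 of 14 genes and monocyte and macrophage markers for 8 of 12. Markers of other marrow cells were above it too, with 5 of 6 for mast cells and basophils, 4 of 7 for eosinophils and 4 of 5 for B cells. Of all 18194 genes on the array, 11345 were above the filter. Differences are on the log2 scale throughout, as kdLNC minus kdNC (knockdown pair), oeLNC minus oeNC (overexpression pair) or oeNC minus kdNC (control arrays), and where a gene has a pair of values the knockdown pair comes first. The median neutrophil marker had -0.84 in the knockdown pair and -0.08 in the overexpression pair, and the median mast cell and basophil marker had -1.74 between the control arrays. These were whole cultures, in which fewer cells of a type and less RNA per cell cannot be told apart.

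Nearly all of the enzyme genes were above the filter, and few differed by 1.5-fold in either pair. Of the 43 genes, 42 had a mean level above the filter, beside 11345 of all 18194 genes. The filter lay at 4.20 on the log2 scale. The exception was Hdac8, a class I deacetylase, which read 2.38 on each of the 4 arrays and is among 81 probe sets whose value was the same on all of them. Of the remaining 42, only Hdac2 was at least 1.5-fold higher in kdLNC than in kdNC, beside 2.25% of the 11345 genes above the filter, and only Dnmt3a was at least 1.5-fold lower, beside 1.84%. Between oeLNC and oeNC none was 1.5-fold higher, beside 3.23% of all genes, and Hdac4, Hdac9 and Kdm2b were 1.5-fold lower, beside 5.26%. Neither pair held a member that differed 2-fold, where 0.802% of all genes did so in the knockdown pair and 0.987% in the overexpression pair. With 42 members, the counts in both pairs lay near these shares.

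**Figure D1:**
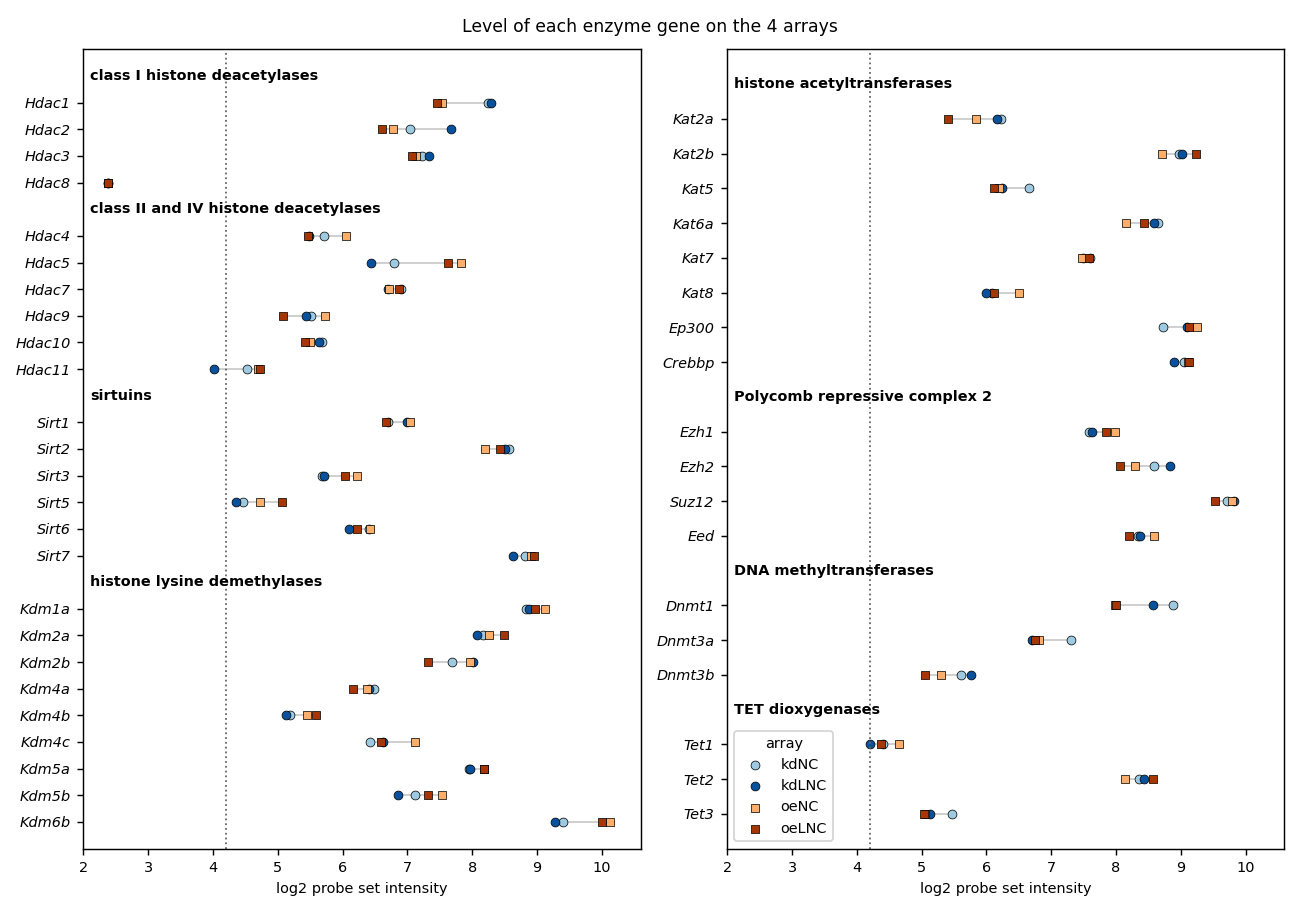
Level of each of the 43 enzyme genes on the log2 intensity scale (x axis) on the 4 arrays, by enzyme class. Circles are the knockdown pair, squares the overexpression pair, dark fill marks kdLNC and oeLNC, the grey line joins the lowest and highest array, and the dotted line is the filter at 4.20. Most genes keep their level within a narrow range, Hdac5 and Kdm6b lie higher in both overexpression arrays, and Hdac1 and Dnmt1 lie lower in both.

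The median difference of the 42 genes was -0.07 in the knockdown pair and -0.12 in the overexpression pair, beside -0.05 and -0.02 for all genes. The median size without sign was 0.118 and 0.194, beside 0.151 and 0.206 for all genes. The signs of the pairs, which share no array, were opposite for 26 of 42 genes, beside 53.8% of all genes. Of these, 15 had a positive knockdown and a negative overexpression difference (23.9% of all genes) and 11 were lower in kdLNC and higher in oeLNC (29.9%). A further 14 were lower in both (28.6%) and 2, Kat2b and Tet2, were higher in both (16.7%). Across the 42 genes the differences of the pairs correlated at r = -0.19, and across all 11345 genes at r = -0.19 as well, as a description over genes read from the same 4 arrays. The 15 genes were Hdac1, Hdac2, Hdac3, Sirt1, Sirt3, Kdm1a, Kdm2b, Kdm4c, Kdm5a, Ep300, Dnmt3b and the 4 PRC2 genes, so this pattern held all of PRC2 and the 3 class I deacetylases above the filter, although Hdac1 left it after a further quantile normalization and Hdac3 after that or loess. Eed, Ezh1, Sirt3, Kdm1a, Kdm2b, Kdm4c, Kdm5a and Ep300 also changed sign in a pair under some alternative processing. The second probe sets above the filter of Ezh1 (-0.09 and 0.03) and Dnmt3b (-0.01 and 0.16) had both signs the other way.

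**Figure D2:**
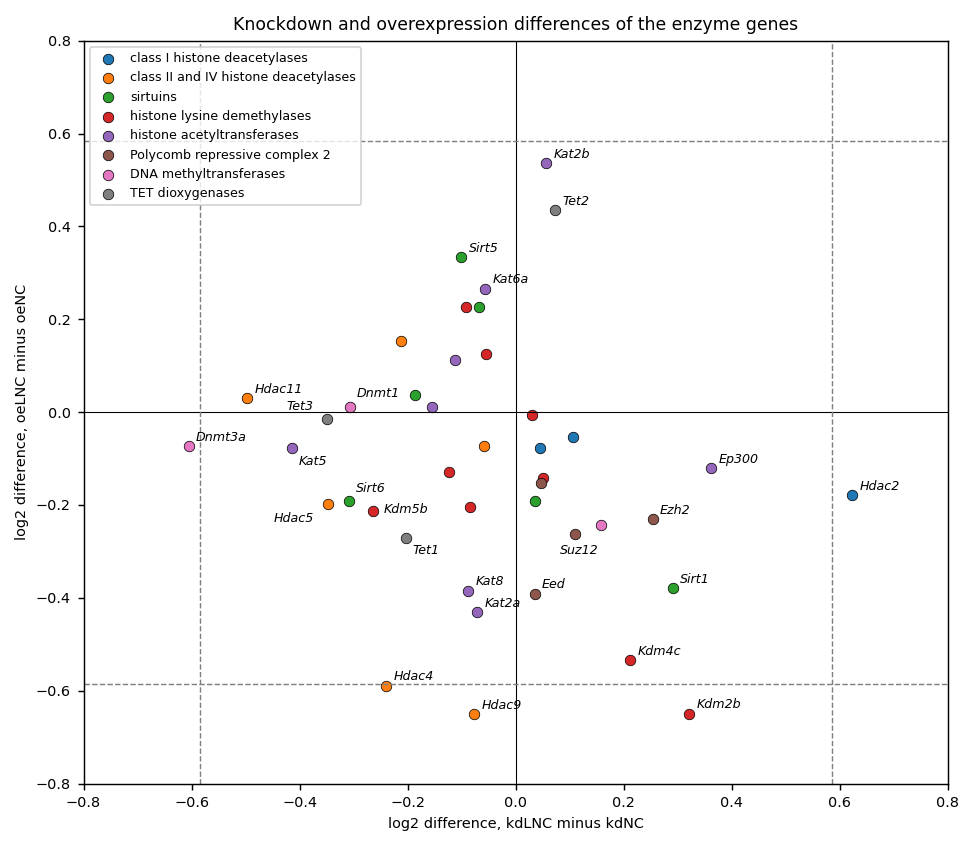
Log2 difference of 42 enzyme genes between kdLNC and kdNC (x axis) and between oeLNC and oeNC (y axis), coloured by class, with 1 point per gene. Dashed lines mark 1.5-fold, the genes with larger differences are named, and the PRC2 genes and class I deacetylases lie at the lower right, higher in kdLNC and lower in oeLNC, although a further quantile normalization put the overexpression difference of Hdac1 at 0.00 and of Hdac3 at 0.04, and loess that of Hdac3 at 0.02. The second Ezh1 probe set above the filter, which is not drawn, gave -0.09 and 0.03.

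Of the class I deacetylases, Hdac1 and Hdac2 are nuclear enzymes that work inside the NuRD, Sin3 and CoREST corepressors, and Hdac3 works in NCoR. Hdac2, the catalytic subunit that pairs with Hdac1, read 7.05 in kdNC and 7.67 in kdLNC, against 6.78 in oeNC and 6.60 in oeLNC on the log2 intensity scale. kdLNC was thus the highest array, 1.54-fold above its control, and both overexpression arrays lay below both knockdown arrays. The log2 difference of 0.62 compares with an SD of 0.56 between the control arrays over the 500 genes nearest in level, a spread between cultures of different vectors that is not a replicate error. The other Hdac2 probe set above the filter gave 0.89 in the knockdown pair and -0.68 in the overexpression pair, where the brighter one gave -0.18. Its culture pairs overlapped. One more, below the filter, gave -0.10 and 0.22.

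Hdac1, its close relative, read 8.24, 8.29, 7.53 and 7.45 in kdNC, kdLNC, oeNC and oeLNC. Its levels split by culture pair, with 1.64-fold less in oeNC than in kdNC and differences within the pairs of 0.05 and -0.08. Hdac3, the deacetylase of NCoR, differed by 0.11 and -0.05. After a further quantile normalization the overexpression difference was 0.00 for Hdac1 and 0.04 for Hdac3, and after loess it was -0.01 and 0.02.

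Corepressor subunits around these enzymes were measured for 16 genes above the filter. None was 1.5-fold higher in either pair, 1 was lower in kdLNC and 1 in oeLNC. Sap30, a Sin3 subunit, had a difference of -0.59 in the knockdown pair and 0.10 in the overexpression pair. Gatad2b, a NuRD subunit, had -0.20 and -0.65. The class II deacetylase Hdac6, which acts mainly in the cytoplasm and was counted with this list, had -0.39 and 0.28.

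Class II deacetylases shuttle between nucleus and cytoplasm and bind MEF2 factors in the case of Hdac4, Hdac5, Hdac7 and Hdac9, while Hdac11 is the only class IV enzyme. All 6 member genes of classes II and IV had lower values in kdLNC than in kdNC, from -0.06 for Hdac10 to -0.50 for Hdac11. Their median was -0.23, beside -0.05 for all genes. Hdac6, the class II gene counted with the corepressor subunits, is not among the 6 and had -0.39 in this pair. A lower value was also the more common sign among all genes, with 6646 of 11345. None of these differences reached 1.5-fold, and that of Hdac10 was 0.04 when kdLNC was set against the average of the controls. The mature neutrophil markers, which had the median of -0.84 given above, were at least 1.5-fold lower in kdLNC for 7 of 12 and had positive differences for the other 5, of which Chil1 with 0.72 was past 1.5-fold. Their summed intensity was 47468 in kdNC and 40673 in kdLNC, against 51997 in oeNC and 48533 in oeLNC. Eosinophil markers had a median of -0.99 in this pair, with 4 of 4 lower and 3 past 1.5-fold, and a summed intensity of 2311 in kdNC and 1230 in kdLNC, against 1185 in oeNC and 1077 in oeLNC. The part of either cell type in the values of the deacetylases was not tested.

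Hdac4 read 5.72 in kdNC and 5.48 in kdLNC, against 6.06 in oeNC and 5.47 in oeLNC. Hdac9 read 5.52, 5.44, 5.73 and 5.08 on the same arrays. In both genes oeNC was the highest array and oeLNC the lowest, and the overexpression difference was -0.59 for Hdac4 and -0.65 for Hdac9, 1.57-fold in the latter. The second probe set of Hdac4 above the filter differed by -0.04 in the overexpression pair, where the representative one gave -0.59.

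Hdac11, a deacetylase and defatty-acylase of immune cells, read 4.52 in kdNC and 4.02 in kdLNC, against 4.70 in oeNC and 4.73 in oeLNC. Its kdLNC value lay below the filter level and was the lowest of the 4. Hdac5 read 6.79, 6.44, 7.82 and 7.63 on these arrays. It was the only member with a 2-fold difference between the control arrays, 2.05-fold higher in oeNC than in kdNC, where 2.96% of all genes were 2-fold higher. Its values within the pairs were closer, at -0.35 and -0.20.

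Sirtuins remove acyl groups at the cost of NAD, in the nucleus for Sirt1, Sirt6 and Sirt7, mainly in the cytoplasm for Sirt2 and in mitochondria for Sirt3 and Sirt5. None of the 6 reached 1.5-fold in any comparison. Sirt1, a nuclear deacetylase of histones and transcription factors, read 6.70 in kdNC and 6.99 in kdLNC, against 7.05 in oeNC and 6.67 in oeLNC. Sirt6, which acts in DNA repair and glycolytic gene control, read 6.41, 6.10, 6.42 and 6.23. Sirt3 read 5.68, 5.71, 6.22 and 6.03. Sirt1 thus had 0.29 and -0.38 in the pairs and overlapping culture pairs, Sirt6 was lower in kdLNC and in oeLNC than in their controls, and Sirt3 was higher in both overexpression arrays than in both knockdown arrays.

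Sirt5, a mitochondrial desuccinylase, differed by -0.10 and 0.33, but by -0.47 in the overexpression pair when cross-matching probe sets, whose probes can hit several transcripts, were left out. The probe set that then represented Sirt5 lay below the filter, with a mean of 3.95. The enzymes that supply NAD, acetyl-CoA, S-adenosylmethionine and 2-oxoglutarate were counted beside these classes, with 16 above the filter. None was 1.5-fold different in kdLNC, and Nmnat3, a mitochondrial NAD synthase, was lower in oeLNC with -0.70. Idh1, which makes cytosolic 2-oxoglutarate, had -0.41 in the knockdown pair and 0.14 in the overexpression pair.

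The acetyltransferases are the opposing writers and fall into the GCN5 pair Kat2a and Kat2b, the MYST group Kat5, Kat6a, Kat7 and Kat8, and the large coactivators Ep300 and Crebbp. No member of the class reached 1.5-fold in any comparison at its representative probe set. The class median was -0.08 in the knockdown pair and -0.03 in the overexpression pair. Kat5, the catalytic subunit of the TIP60 complex, read 6.65 in kdNC and 6.24 in kdLNC, against 6.20 in oeNC and 6.12 in oeLNC. Kat2b, a SAGA-type coactivator, read 8.97, 9.02, 8.71 and 9.24. Ep300, an enhancer coactivator, read 8.73, 9.09, 9.25 and 9.13. Kat5 was highest in kdNC, Kat2b was lowest in oeNC and highest in oeLNC, and Ep300 was lowest in kdNC. The representative probe set of Kat5 gave -0.41 in the knockdown pair and -0.08 in the overexpression pair. Its second probe set above the filter gave -0.11 and -0.70, the latter past 1.5-fold.

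Paralogous enzymes differed in sign at their representative probe sets. Crebbp, the paralogue of Ep300, had -0.15 in the knockdown pair against 0.36 for Ep300. Kat2a, the paralogue of Kat2b, had -0.43 in the overexpression pair against 0.54, although its second probe set gave 0.43. The other Kat2b probe set above the filter gave 0.99 in the overexpression pair and -1.11 between the control arrays, so that it was low on oeNC only. Of 24 subunits of acetyltransferase complexes, none was 1.5-fold different in kdLNC and 2 were lower in oeLNC, the SAGA reader Sgf29 with -0.61 and the acetyltransferase Kat6b with -0.88. Kat6b was high on oeNC only, with 5.28 in kdNC and 5.47 in kdLNC, against 6.61 in oeNC and 5.72 in oeLNC.

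Lysine demethylases comprise the flavin-dependent Kdm1a and the JmjC enzymes, of which Kdm4 members act on repressive marks, Kdm5 members on the promoter mark of active genes and Kdm6b on the mark written by PRC2. Within the pairs 1 of 9 members reached 1.5-fold. Kdm2b, a CpG-binding demethylase that brings a PRC1 complex to unmethylated CpG islands, read 7.69 in kdNC and 8.01 in kdLNC, against 7.96 in oeNC and 7.31 in oeLNC. oeLNC was the lowest array, 1.57-fold below oeNC, and the second probe set gave -0.30 there and -0.03 in the knockdown pair, where the brighter one gave 0.32. Kdm4c read 6.42, 6.63, 7.12 and 6.59, so that oeNC stood above the other arrays, 1.63-fold above kdNC.

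Kdm6b is an inflammation-induced demethylase of macrophages. It read 9.40 in kdNC, 9.28 in kdLNC and 10.13 in oeNC, and oeLNC differed from oeNC by -0.13. Both overexpression arrays lay above both knockdown arrays, the control arrays differed 1.66-fold, and the difference within the knockdown pair was -0.12. The 3 probe sets of Kdm6b above the filter had differences of 0.73, 1.02 and 0.36 between oeNC and kdNC.

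Kdm5a, a demethylase of active promoters, shows how far a value can rest on the probe set. Its representative probe set gave 0.03 in the knockdown pair and -0.01 in the overexpression pair. The others above the filter, named after their values were seen, gave 0.35 and -0.67, and 0.59 and -0.92. These probe sets thus read more in kdLNC and less in oeLNC, and the brightest one differed little. Among the 11 other demethylases on the partner list, Kdm5c was higher in oeLNC with 0.71, and Kdm1b with -0.83 and Kdm8 with -0.63 were lower. Kdm5c also had a difference of -1.25 between oeNC and kdNC, so that oeLNC at 7.42 lay nearer than oeNC at 6.71 to kdNC at 7.96.

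**Figure D3:**
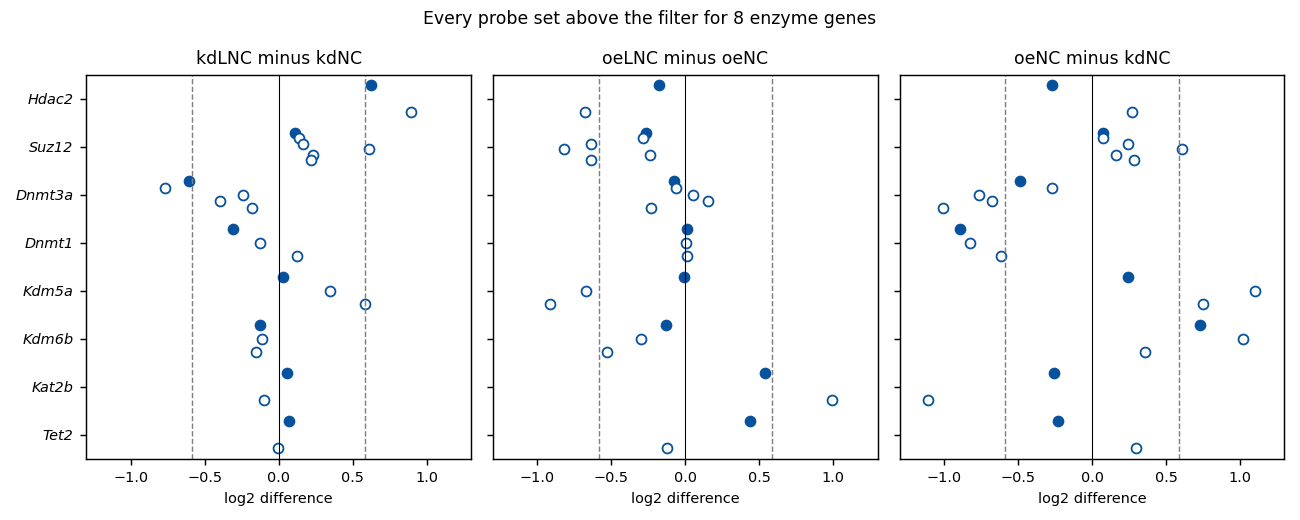
Log2 differences (x axis) of every probe set above the filter for 8 enzyme genes in the 3 comparisons named above the panels. Filled points are the probe sets that represent the genes, open points the others, and dashed lines mark 1.5-fold. Suz12 has 6 probe sets on the same side in both pairs, Dnmt3a has 5 below 0 in the knockdown pair, and the open points of Kdm5a lie far from its filled one.

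PRC2 consists of a methyltransferase, Ezh2 in dividing and Ezh1 in resting cells, and the core subunits Suz12 and Eed, without which it has little activity. At their representative probe sets all 4 genes had higher values in kdLNC than in kdNC and lower values in oeLNC than in oeNC. None of these differences reached 1.5-fold. The second Ezh1 probe set above the filter gave -0.09 and 0.03, the other way round in both pairs. The class median was 0.08 in the knockdown pair and -0.25 in the overexpression pair, beside -0.05 and -0.02 for all genes. The 4 PRC2 genes and Hdac2 were picked for display after their values were seen. Their opposite signs in the pairs were shared by 26 of 42 members in all and by 53.8% of all genes. The sequences around their transcription starts are shown, from 250 bases before to 50 bases after the start as RefSeq gives it on GRCm38.p6. They lie at chr6:47594981-47595280 on the minus strand for Ezh2, chr11:79992856-79993155 on the plus strand for Suz12, chr7:89980927-89981226 on the minus strand for Eed, chr11:101226414-101226713 on the minus strand for Ezh1 and chr10:36974294-36974593 on the plus strand for Hdac2. Capitals mark matches to TTTCCCGC, a form of the E2F motif, and to GGGCGG, the SP1 box, on either strand.
Ezh2: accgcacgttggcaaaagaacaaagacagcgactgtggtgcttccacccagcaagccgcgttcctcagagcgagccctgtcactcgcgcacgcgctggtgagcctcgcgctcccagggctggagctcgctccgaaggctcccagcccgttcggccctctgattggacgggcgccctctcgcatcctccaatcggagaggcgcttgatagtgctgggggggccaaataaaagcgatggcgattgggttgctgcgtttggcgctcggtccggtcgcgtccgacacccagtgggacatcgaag
Suz12: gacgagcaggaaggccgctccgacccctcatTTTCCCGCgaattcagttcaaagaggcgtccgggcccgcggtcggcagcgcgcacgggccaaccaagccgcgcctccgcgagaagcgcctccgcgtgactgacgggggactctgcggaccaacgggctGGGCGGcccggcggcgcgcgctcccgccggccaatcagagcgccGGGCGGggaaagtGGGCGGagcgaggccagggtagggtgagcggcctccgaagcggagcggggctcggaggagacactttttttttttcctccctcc
Eed: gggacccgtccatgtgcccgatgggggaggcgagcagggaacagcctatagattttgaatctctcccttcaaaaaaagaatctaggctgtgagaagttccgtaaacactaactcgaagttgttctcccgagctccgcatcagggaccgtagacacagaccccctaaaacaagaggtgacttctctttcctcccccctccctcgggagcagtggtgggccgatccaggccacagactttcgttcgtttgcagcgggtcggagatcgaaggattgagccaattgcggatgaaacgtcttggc
Ezh1: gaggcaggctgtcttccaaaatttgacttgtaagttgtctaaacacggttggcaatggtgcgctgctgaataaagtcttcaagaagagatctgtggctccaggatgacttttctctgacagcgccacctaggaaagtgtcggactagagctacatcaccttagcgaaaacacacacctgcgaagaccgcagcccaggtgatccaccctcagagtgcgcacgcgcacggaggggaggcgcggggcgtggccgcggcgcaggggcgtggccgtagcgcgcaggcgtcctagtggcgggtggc
Hdac2: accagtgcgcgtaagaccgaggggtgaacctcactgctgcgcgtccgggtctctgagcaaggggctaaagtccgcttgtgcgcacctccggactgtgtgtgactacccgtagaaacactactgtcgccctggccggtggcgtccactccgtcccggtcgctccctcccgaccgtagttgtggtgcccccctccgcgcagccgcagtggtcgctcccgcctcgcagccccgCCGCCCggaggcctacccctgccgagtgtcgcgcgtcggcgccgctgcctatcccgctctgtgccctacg

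These windows are rich in CpG, with 31 in Ezh2, 41 in Suz12, 17 in Eed, 23 in Ezh1 and 36 in Hdac2. The median over 52 starts of the 35 members with a sequence was 20.5, beside 20.0 for the starts of genes above the filter and 7 for all 32851 starts, so the members were like other expressed genes in this respect. Suz12 alone among the members with a sequence held the E2F form, from position -219 counted from the start, where 1.07% of all starts and 1.99% of those of genes above the filter hold it. It also held GGGCGG from positions -91, -47 and -34, and Hdac2 held it from position -20. GGGCGG was present at 57.7% of the member starts, beside 60.5% for genes above the filter and 35.7% for all starts. TTGCNNAA, a C/EBP motif searched because of the name of the RNA, was in none of the 5 sequences, and in 9.62% of member starts, beside 8.39% for genes above the filter and 10.8% of all starts. The motifs do not overlap in these windows. Such a match is a string of letters and not a site. Hdac1, Hdac3, Hdac10, Kdm2a, Kdm4b, Kdm5a, Kdm6b and Kat6a had no entry.

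Ezh2, the methyltransferase of proliferating cells, read 8.58 in kdNC and 8.84 in kdLNC, against 8.30 in oeNC and 8.07 in oeLNC. Eed, which reads the mark and stimulates the enzyme, read 8.34, 8.37, 8.59 and 8.20. Ezh1 read 7.58, 7.62, 7.99 and 7.84. Ezh2 was highest in kdLNC and lowest in oeLNC, with both overexpression arrays below both knockdown arrays, while Ezh1 lay the other way round between the culture pairs and Eed overlapped.

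Suz12, the scaffold of the complex, read 9.72 in kdNC and 9.83 in kdLNC, against 9.79 in oeNC and 9.53 in oeLNC. It had 6 probe sets above the filter, and all 6 were higher in kdLNC, by 0.11 to 0.61, and lower in oeLNC, with differences from -0.24 to -0.82. The sign was less stable for Eed and Ezh1. In the knockdown pair Eed differed by only 0.03 and Ezh1 by 0.05, and Ezh1 had -0.15 there when all its probe sets were averaged. Set against the average of oeNC and kdNC, Eed had -0.09 in kdLNC, and Ezh1 had -0.16 in kdLNC and 0.05 in oeLNC. Ezh2, with 0.40 and -0.37, and Suz12, with 0.07 and -0.23, had the same signs as before.

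Of 21 accessory PRC2 and PRC1 genes, none was 1.5-fold different in either pair, and 7 lay above kdNC in kdLNC and below oeNC in oeLNC (23.9% of all genes), as many as lay the other way round in both pairs (7, beside 29.9%). Rbbp7, a histone chaperone found in PRC2 and in class I deacetylase complexes, had the largest differences of the list in both pairs, with 0.56 and -0.48. It read 9.42 in kdNC and 9.98 in kdLNC, against 9.35 in oeNC and 8.87 in oeLNC, so that the controls lay side by side and the treated arrays on either side of them. Jarid2, which guides PRC2 to its targets, had 0.02 and 0.38. Pcgf5, a PRC1 subunit, had -0.41 and 0.17. Among 16 other lysine methyltransferases, none was 1.5-fold different in kdLNC, and Smyd2 was lower in oeLNC with -0.69.

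DNA methyltransferases divide into Dnmt1, which copies methylation after replication, and Dnmt3a and Dnmt3b, which set it anew. Dnmt3a read 7.30 in kdNC and 6.70 in kdLNC, against 6.82 in oeNC and 6.74 in oeLNC. kdNC stood above the other 3 arrays, 1.52-fold above kdLNC, and the difference of -0.61 compares with an SD of 0.57 between the control arrays among genes of like level. All 5 probe sets above the filter were lower in kdLNC than in kdNC, from -0.18 to -0.77, and all 5 were lower in oeNC than in kdNC, with -0.49 at the representative one. Against the mean of both controls the difference was -0.36, since kdNC was the high array. The ratio of the 3′ to the 5′ actin probe set, a sign of RNA integrity, was 1.61 on the log2 scale in kdNC and 1.96 to 1.97 on the other arrays. That of Gapdh did not set kdNC apart, with 0.51 in kdNC and 0.53 in oeNC beside 0.69 in kdLNC and 0.65 in oeLNC. The part of RNA integrity in the Dnmt3a value was not tested.

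Dnmt1 read 8.88 in kdNC, 8.57 in kdLNC and 7.99 in oeNC, and oeLNC differed from oeNC by 0.01. Both overexpression arrays lay below both knockdown arrays, and oeNC lay 1.85-fold below kdNC, whereas the overexpression pair hardly differed. All 3 probe sets gave this order between the controls, with -0.89, -0.83 and -0.62. Dnmt3b read 5.61, 5.77, 5.30 and 5.05, again with both overexpression arrays below both knockdown arrays. Uhrf1, which brings Dnmt1 to newly copied DNA, read 7.74, 7.74, 7.37 and 6.43 and was lowest in oeLNC, with -0.93.

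Of the 14 readers and partners of DNA methylation, 1 was 1.5-fold lower in kdLNC and 2 in oeLNC, Uhrf1 among them. Gadd45g, a stress-response protein linked to demethylation, had -0.89 in the knockdown pair and -0.26 in the overexpression pair. Gadd45a, its relative, had 0.06 and -0.66, with 8.85 in kdNC and 8.91 in kdLNC, against 9.94 in oeNC and 9.28 in oeLNC. oeNC was the highest array for Gadd45a, 1.08 above kdNC on the log2 scale.

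TET genes stayed within 1.5-fold in the 3 comparisons. Tet2, the main TET enzyme of myeloid cells, read 8.36 in kdNC and 8.43 in kdLNC, against 8.13 in oeNC and 8.57 in oeLNC. Tet3 read 5.48, 5.13, 5.05 and 5.04. Tet2 was lowest in oeNC and highest in oeLNC at this probe set, with 0.43, but its second probe set gave -0.12, and Tet3 was highest in kdNC. Tet1, which lies close to the filter level, had -0.20 and -0.27, and 0.54 in the overexpression pair when cross-matching probe sets were left out. The probe set that then represented Tet1 lay below the filter, with a mean of 3.66.

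**Figure D4:**
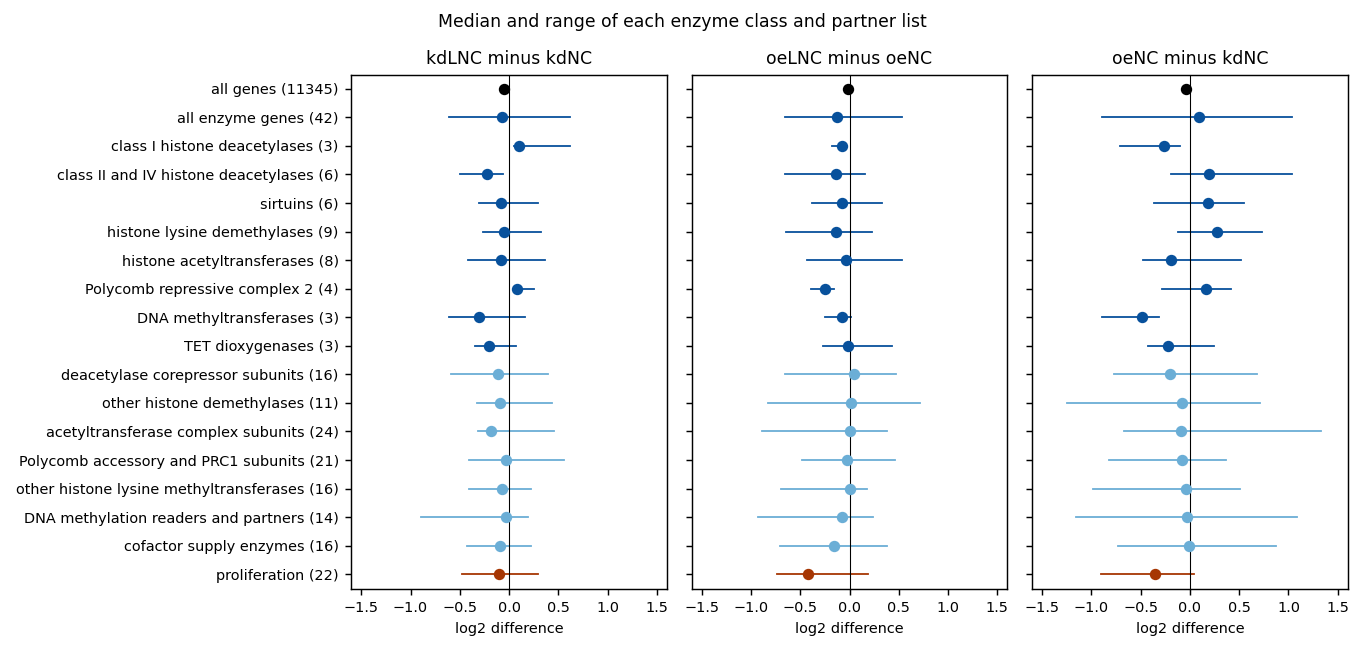
Median (point) and range from lowest to highest gene (line) of the log2 difference for all genes above the filter (median only), each enzyme class, each list of partner genes and the proliferation genes, in the 3 comparisons. The number of genes is in brackets. PRC2 lies above 0 in the knockdown pair and below 0 in the overexpression pair, and the proliferation genes have medians of -0.42 and -0.35 in the overexpression pair and between the control arrays.

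The larger differences of the enzyme genes were those between the culture pairs. Between the control arrays, 5 of 42 genes differed at least 1.5-fold, where 21.3% of all genes did. Hdac5, Kdm6b and Kdm4c were higher in oeNC, beside 9.09% of all genes, and Dnmt1 and Hdac1 were lower, beside 12.2%. The median size of this difference was 0.278, beside 0.274 for all genes, and it exceeded the 0.118 and 0.194 within the pairs. Since the control arrays differ in vector and culture at once, these cannot be told apart. Mast cell and basophil markers, with the median of -1.74 given above, were 1.5-fold lower in oeNC for 5 of 5 above the filter, and their summed intensity was 2230 in kdNC and 1860 in kdLNC, against 957 in oeNC and 1180 in oeLNC. Eosinophil markers had a median of -1.31 in this comparison and B cell markers one of -1.18, with 3 of 4 at least 1.5-fold lower in each list. The summed B cell intensity was 2214 in kdNC and 2084 in kdLNC, against 1378 in oeNC and 1330 in oeLNC. The part of these cell types in the values of the enzyme genes was not tested.

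Both overexpression arrays lay above both knockdown arrays for 15 of 42 genes, beside 26.2% of all genes, and below for 13, beside 32.1%. The member classes differed in this split, on few genes each. Of 9 demethylases, 6 lay above (Kdm1a, Kdm2a, Kdm4b, Kdm5a, Kdm5b and Kdm6b) and 1, Kdm4a, below, although the second probe set of Kdm5b gave -0.50. Further probe sets above the filter overlapped between the culture pairs for Kdm1a, Kdm2a, Kdm5a and Kdm6b, while others of Kdm2a, Kdm5a and Kdm6b lay above. Of the 11 other demethylases on the partner list, 3 lay above, 4 lay below and 4 overlapped. Among deacetylases, all 3 class I genes above the filter lay below, and in classes II and IV 2 lay above (Hdac5 and Hdac11) and 1 below. The other Hdac2 probe set above the filter overlapped between the culture pairs, with 0.27 between the control arrays. Dnmt1 and Dnmt3b lay below, as did Ezh2, whereas Ezh1 lay above. The mean of the overexpression arrays exceeded that of the knockdown arrays most for Hdac5, by 1.11 on the log2 scale, and Hdac1 lay at the other end with -0.78.

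**Figure D5:**
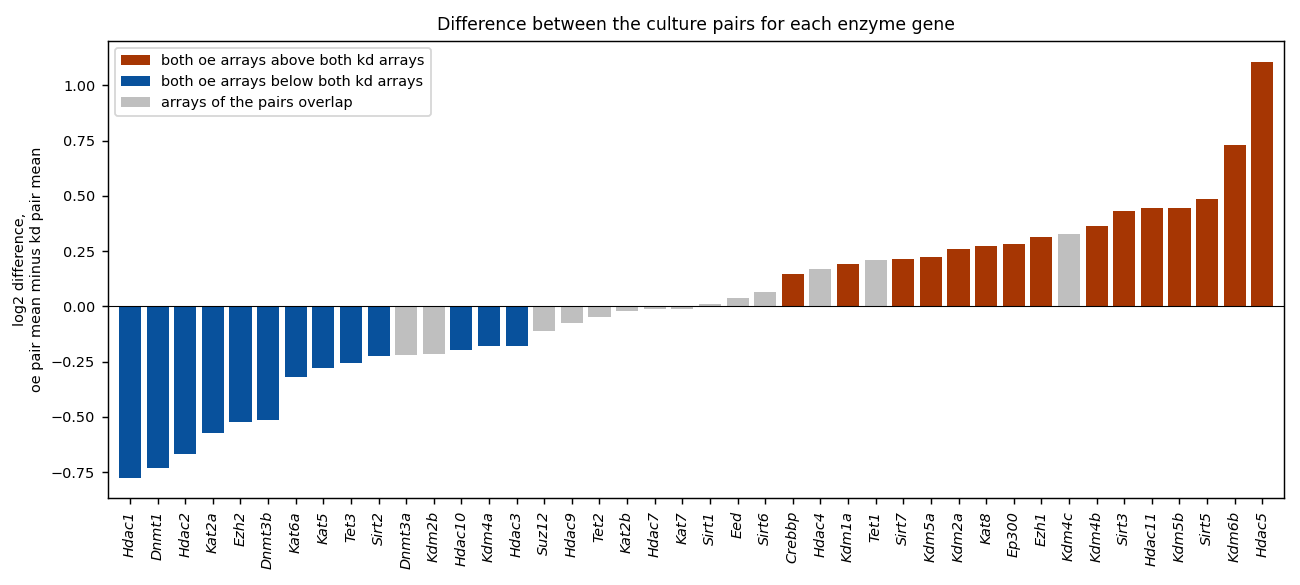
Mean log2 level of the 2 overexpression arrays minus that of the 2 knockdown arrays (y axis) for 42 enzyme genes in order of the difference. Colour shows whether both overexpression arrays lay above or below both knockdown arrays, or overlapped with them. Values run from -0.78 for Hdac1 to 1.11 for Hdac5.

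On the low side, Dnmt1 and Ezh2 are known to be abundant in dividing cells, so the proliferation genes were read beside them. Of 22 above the filter, 17 had both overexpression arrays below both knockdown arrays, beside 32.1% of all genes, and none had them above, beside 26.2%. Their median was -0.11 in the knockdown pair, -0.42 in the overexpression pair and -0.35 between the control arrays. The summed intensity was 9263 in kdNC and 8472 in kdLNC, against 6917 in oeNC and 5946 in oeLNC. In the overexpression pair 4 were 1.5-fold lower, among them Birc5 with -0.73, Aurkb with -0.70 and Mcm5 with -0.65. The part of proliferation in the values of the enzyme genes was not tested.

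Across all partner lists, 118 of 132 genes were above the filter. In the knockdown pair none was 1.5-fold higher (2.25% of all genes) and 2 were lower (1.84%), and in the overexpression pair 1 was higher (3.23%) and 9 were lower (5.26%). Between the control arrays 9 were higher (9.09%) and 13 lower (12.2%). Agreement among probe sets was read over the 21 members with several above the filter. All probe sets of a gene had 1 sign for 13 members in the knockdown pair, 12 in the overexpression pair and 14 between the control arrays, beside 46.5%, 47.6% and 49.0% of genes with several probe sets.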

How the data were processed

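RNA of 4 cultures, 1 per group, was measured on 1 mouse array each, and groups were taken from the labels. The authors deposited linear intensities of 45101 probe sets, and their processing notes name RMA without a version. No background estimate was used here, and precision is limited by the number of arrays. Here log2 was taken of the deposited intensities. Probe sets naming 1 gene symbol (34958) gave 18194 genes, and the brightest probe set by mean log2 represented a gene. Genes with a mean above the median probe set (log2 4.20) were counted, 11345 in all, at 1.5-fold and 2-fold.

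Limma, named in the methods, could not be fitted to 1 array per group, so no test was made. Members and lists were chosen with earlier results of these data known. All 4 values are given for members at least 1.5-fold different in a comparison and for the member of each class with the largest difference in each. Up to 3 genes per partner list and pair were named by size. Other members named singly, such as Suz12, and all second probe sets were named after their values were seen.

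Promoter sequences came from RefSeq (GRCm38.p6) for 35 of 43 members. Alternatives were loess inside each pair, quantile normalization once more, centring on medians, averaging all probe sets of a gene, leaving out cross-matching probe sets (ID suffix x or s), other filters, both controls averaged, and a fold of 2. The calculation was tested on simulated data. Python 3.11.15, numpy 2.4.6, pandas 2.3.3, statsmodels 0.14.6 and matplotlib 3.10.9 were used.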

Additional observations from a re-analysis of the deposited data

How the results depend on the processing

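Medians of the enzyme genes kept their sign under every alternative run, with -0.04 to -0.10 in the knockdown pair, -0.08 to -0.19 in the overexpression pair and 0.02 to 0.13 between the control arrays. Counts at 1.5-fold were small, so single genes moved them. In the knockdown pair the count of higher genes went from 1 to 0 with the mean of all probe sets and at 2-fold, and that of lower genes from 1 to 0 with loess, with the mean of all probe sets and at 2-fold, and to 2 with both controls averaged. In the overexpression pair the count of higher genes went from 0 to 1 without cross-matching probe sets (those whose probes can hit several transcripts). The count of lower genes there went from 3 to 1 with quantile normalization, with the mean of all probe sets and with both controls averaged, to 5 without such probe sets and to 0 at 2-fold. Between the control arrays, 3 higher and 2 lower genes became 1 and 0 at 2-fold. Among the recomputed summaries 93 stayed near the reported value and 14 moved. Signs of single genes changed for 6 of 129 differences with quantile normalization, 4 with loess, 4 with centring and 14 with the mean of all probe sets, for 8 of 123 without cross-matching probe sets, and for 19 of 86 with both controls averaged. The cause of these shifts was not tested. No paired analysis was possible because there is 1 array per group, which also means that no array could be left out. Differences of this size cannot be set against replicate error here, and intensities near the filter level were not separated from background.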
